A study of Mus musculus with 8 samples.

Results

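The Janus kinases Jak1, Jak2, Jak3 and Tyk2 and the transcription factors Stat2, Stat3, Stat5a, Stat5b and Stat6 were followed at the mRNA level in bone marrow-derived mast cells (BMMCs) after Mettl3 was targeted with Cas9. These 9 genes were taken by symbol, after the Ensembl identifiers of the count tables had been mapped to mouse gene names. They are 9 of 56748 gene IDs in the tables and 9 of the 14942 genes with enough counts to be tested, so none was lost to the filter on low counts. The rule for the 4 kinases and 5 factors uses their names and no measured value, but it was set with earlier results of these data known.

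BMMCs are primary mast cells that form when mouse bone marrow is cultured, here from young C57BL/6 mice and with IL-3 as the growth factor, and they were resting when RNA was taken. In the Mettl3-RNP group (4 libraries, genotype Mettl3 KO) the cells had received ribonucleoproteins (RNPs) of Cas9 and guide RNAs against Mettl3, the enzyme that places N6-methyladenosine (m6A) on mRNA. In the Pulsed group (4 libraries) the cells went through the same transfection as a mock, without any RNP, so Cas9 itself and DNA cutting were present in the Mettl3-RNP group alone and cannot be told apart from the loss of Mettl3. Neither cloning nor selection of the RNP-treated cells is named in the labels or methods, so edited and unedited cells were sequenced together, and no other allele or agent is named for either group. Both groups carry the replicate numbers 1 to 4, and libraries with the same number were treated as a pair.

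JAK kinases sit on the inner ends of cytokine receptors that have no kinase of their own. When a cytokine brings receptor chains together, the kinases phosphorylate each other, the receptor and the STAT factors docked on it, and the STATs pair, enter the nucleus and switch on genes that include SOCS-family inhibitors of the same kinases. In mast cells, IL-3 acts through Jak2 and Stat5, which sustain growth and survival, and IL-4 acts through Jak1, Jak3 and Stat6. This control works largely through phosphorylation of the proteins, which RNA-seq does not measure.

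The libraries held 32643260 to 45324826 counts and 21871 to 28483 genes with at least 1 count. Mettl3 transcripts were at 8.89 ± 3.05 CPM (counts per 1000000 counts of the library, SD, n = 4) in Mettl3-RNP and at 22.0 ± 7.29 CPM in Pulsed cells, lower in 4 of 4 pairs, with a log2 fold change of -1.30 (SE 0.109, adjusted p = 0.00543, edgeR). The 13 mast cell markers summed to 40798 to 64399 CPM per library, with Kit, Fcer1a, Cma1 and Cpa3 high throughout. Their sum was lower in the Mettl3-RNP library of 4 of 4 pairs (40798, 57012, 54211 and 57655 CPM against 46073, 64399, 58517 and 63482), while their median level was higher in 4 of 4 pairs (11.21, 11.52, 11.54 and 11.21 log2 CPM against 11.18, 11.28, 11.42 and 11.09). Of the 13 mast cell markers 12 had enough counts to be tested. Their log2 fold changes ran from -1.58 to 0.30, with 7 above 0 and 5 below. Cpa3, a mast cell protease, was the only one called, lower in Mettl3-RNP cells (log2 fold change -0.37, adjusted p = 0.0328, edgeR). The sums were at most 0.398 CPM for neutrophil, 1.17 CPM for lymphocyte and 11.9 CPM for macrophage markers. Erythroid markers summed to 9.13 to 14.8 CPM in Mettl3-RNP and to 15.3 to 28.9 CPM in Pulsed libraries, and of them Car2 fell (log2 fold change -0.95, adjusted p = 0.0272, edgeR). Of the neutrophil list, S100a8, S100a9, Elane and Camp were at 0 in every library. Basophil markers summed to 1795 to 2420 CPM in Mettl3-RNP and to 2244 to 3322 CPM in Pulsed libraries, and 2 of the 5, Ifitm1 (-0.60, adjusted p = 0.0471) and Il18rap (-0.79, adjusted p = 0.0324), fell by edgeR, as did the macrophage marker Adgre1 (-1.13, adjusted p = 0.0435). The median level of 14 immediate early genes ran from 2.55 to 9.81 log2 CPM in Mettl3-RNP and from 2.08 to 9.51 in Pulsed libraries, highest in replicate 3 and lowest in replicate 4 of both groups. Genes of the olfactory and vomeronasal receptor families, which are not expected in mast cells, held most in Mettl3-RNP 2, at 297 CPM against 47.5 to 196 CPM in the other libraries.

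To ask whether depletion of Mettl3 altered the JAK-STAT machinery of resting mast cells, each transcript was compared between the paired groups. None of the 9 genes changed by the test used: 0 of 9 had an adjusted p of 0.05 or less (edgeR quasi-likelihood test with Benjamini-Hochberg adjustment over all genes), beside 3.74% of all genes tested. At an unadjusted p of 0.05 or less the count was also 0 of 9, beside 22.5% of all genes. With library size alone, and without replicate 3, that count was 1 of 9, Stat2, whose adjusted p was then 0.210 and 0.203 (edgeR). Neither DESeq2 (9.7% of all genes called) nor limma-voom (4.3%) called a member. The fitted fold changes ran from 0.914 for Stat3 to 1.14 for Stat2. Every one of the 9 intervals stayed within a fold change of 1.5 in either direction, and the widest bounds were 18.6% lower (Tyk2) and 34.1% higher (Stat2). In bulk RNA, fewer cells of a type and less RNA per cell cannot be told apart.

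**Figure D1:**
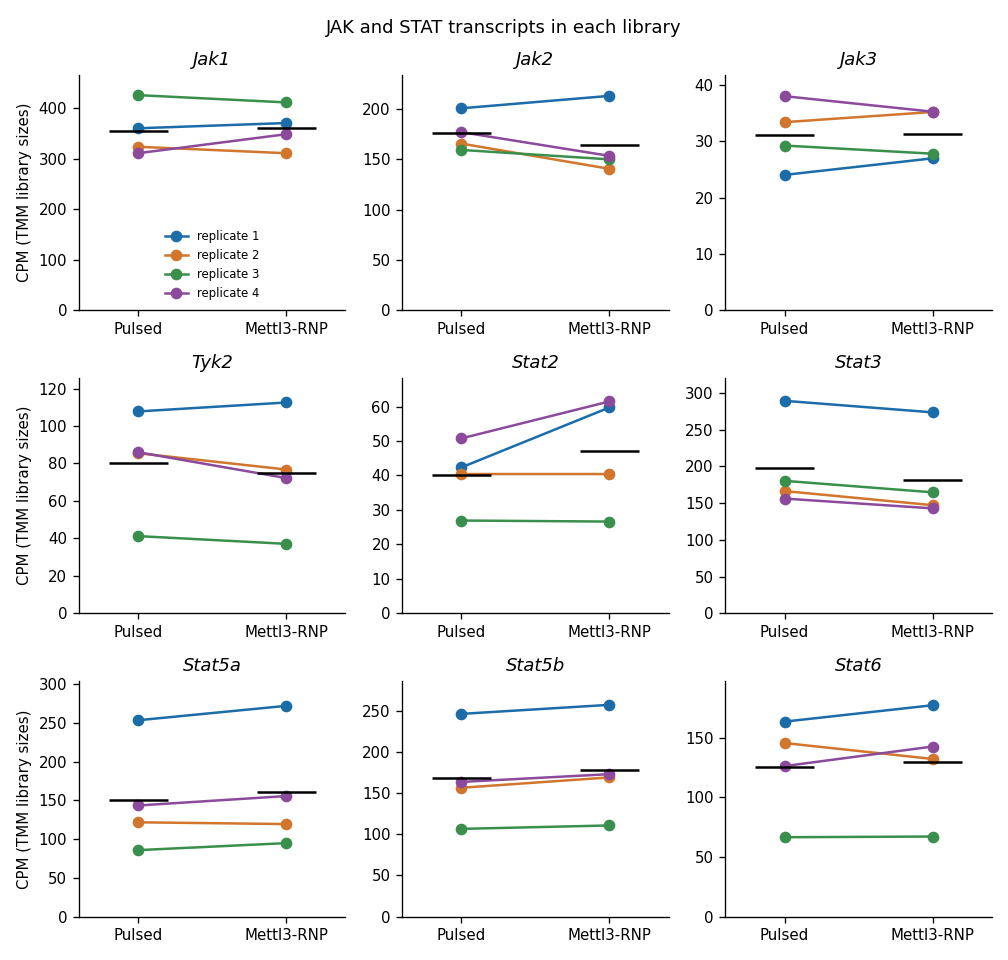
CPM of each of the 9 genes in Pulsed and Mettl3-RNP libraries, with lines joining libraries of the same replicate number and black bars at the mean of 4 libraries. The groups overlap for every gene, and in both groups replicate 3 lies lowest for Tyk2, Stat2, Stat5a, Stat5b and Stat6.

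Jak1, the kinase shared by the widest range of cytokine receptors, lies on chromosome 4 (101008838 to 101122487, minus strand, GRCm39). It was at 370, 311, 411 and 348 CPM in Mettl3-RNP 1 to 4 and at 360, 323, 426 and 311 CPM in Pulsed 1 to 4. The groups overlapped, with replicate 3 highest in each. The means of 360 ± 42.1 and 355 ± 51.6 CPM (SD, n = 4) gave a log2 fold change of 0.02 (SE 0.070, adjusted p = 0.878, edgeR), a fold of 1.02 with a 95% interval from 0.909 to 1.14.

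Jak2, the kinase of the IL-3 receptor beta chains and of the erythropoietin and growth hormone receptors, lies on chromosome 19 (29228677 to 29290505, plus strand). Levels in Mettl3-RNP 1 to 4 were 213, 141, 150 and 153 CPM, and those in Pulsed 1 to 4 were 201, 166, 159 and 177 CPM. Mettl3-RNP 2, 3 and 4 lay below every Pulsed library, while Mettl3-RNP 1 lay above them all. The log2 fold change was -0.11 (SE 0.077, adjusted p = 0.453, edgeR), with an interval of the fold from 0.818 to 1.05, and the difference was negative in 3 of 4 pairs.

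Jak3, which binds the common gamma chain of the IL-2 receptor family, lies on chromosome 8 (72123007 to 72143225, plus strand). It was at 27.0, 35.2, 27.8 and 35.3 CPM in Mettl3-RNP and at 24.0, 33.4, 29.2 and 38.0 CPM in Pulsed cells. Replicate 1 was lowest and replicate 4 highest in both groups. The fold was 1.01 with an interval from 0.888 to 1.15 (adjusted p = 0.936, edgeR), and 2 of 4 pairs were higher.

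Tyk2, the kinase of the receptors for type I interferons, IL-12 and IL-10, lies on chromosome 9 (21015363 to 21042689, minus strand). Mettl3-RNP 1 to 4 held 113, 76.8, 37.1 and 72.2 CPM and Pulsed 1 to 4 held 108, 85.5, 41.2 and 86.0 CPM. The replicate 3 libraries stood below all others in both groups. Pairs 2, 3 and 4 were lower by 0.15, 0.15 and 0.25 on the log2 scale and pair 1 was higher by 0.06, and the fit gave a log2 fold change of -0.12 (SE 0.075, adjusted p = 0.382, edgeR) with an interval of the fold from 0.814 to 1.03.

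Stat2, the partner of Irf9 in the complex that type I interferons activate, lies on chromosome 10 (128106352 to 128128735, plus strand), 609489 bases from Stat6. Its values were 59.7, 40.4, 26.6 and 61.5 CPM in Mettl3-RNP 1 to 4 and 42.3, 40.4, 26.9 and 50.7 CPM in Pulsed 1 to 4. Pairs 1 and 4 were higher in Mettl3-RNP cells by 0.50 and 0.28 on the log2 scale, while pairs 2 and 3 were level within 0.02. The pair 1 difference was the largest of any pair and member. The log2 fold change of 0.19 was the largest of the 9 and had the largest error (SE 0.100, adjusted p = 0.306, edgeR), with a fold of 1.14 and an interval from 0.973 to 1.34. Without replicate 1 it was 0.052, smaller in size than those of Tyk2 (-0.22) and Jak2 (-0.21) in the same fit.

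Stat3, the factor of the IL-6 family and of IL-10, lies on chromosome 11 (100775924 to 100830450, minus strand). Mettl3-RNP libraries held 274, 147, 165 and 143 CPM and Pulsed libraries 289, 166, 180 and 156 CPM. In both groups replicate 1 stood well above the other libraries. Stat3 was lower in 4 of 4 pairs, by 0.08, 0.18, 0.13 and 0.13 on the log2 scale, and had the lowest adjusted p of the 9, which did not pass the test (log2 fold change -0.13, SE 0.064, adjusted p = 0.278, edgeR). The fold of 0.914 had an interval from 0.826 to 1.01.

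Stat5a and Stat5b, near-identical factors that carry the IL-3 signal, lie on chromosome 11 at 100750177 to 100776065 (plus strand) and 100671556 to 100741589 (minus strand). They point away from each other across 8587 bases. Stat5a was at 272, 119, 94.8 and 155 CPM in Mettl3-RNP 1 to 4 and at 253, 122, 85.7 and 143 CPM in Pulsed 1 to 4. Stat5b was at 258, 169, 111 and 173 CPM and at 247, 157, 107 and 164 CPM in the same order. Both were highest in replicate 1 and lowest in replicate 3 of each group.

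The log2 fold change was 0.08 (SE 0.067, adjusted p = 0.517, edgeR) for Stat5a, higher in 3 of 4 pairs, and 0.08 (SE 0.063, adjusted p = 0.525) for Stat5b, higher in 4 of 4 pairs. The intervals of the fold were 0.953 to 1.18 and 0.954 to 1.17. Without replicate 1 the log2 fold changes were 0.042 for Stat5a and 0.047 for Stat5b. Stat3 and Stat5b were the 2 members with the same direction in 4 of 4 pairs, which holds for 31.7% of all genes tested, and no member had groups that did not overlap, which holds for 3.23% of all genes. Their paired differences were also tested by flipping signs, an exact permutation test on both sides, and each had p = 0.125, the smallest that 4 pairs allow.

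Reads cannot always be assigned between Stat5a and Stat5b. Of all windows of 50 bases, the read length, in their transcripts, 612 occurred in both genes (6.96% of the windows of Stat5a and 7.45% of those of Stat5b). The windows stand for single reads, and the mates of the paired reads, which may tell the genes apart, were not taken into account. The longest stretch common to both was 324 bases of coding sequence, in exons 6 to 8 of a Stat5a transcript (chr11:100764849-100765809, plus strand, GRCm39, introns included) and exons 7 to 9 of a Stat5b transcript (chr11:100688567-100689527, minus strand). Its opening 150 bases, the same letters in both genes, are shown because a read from this stretch, taken without its mate, fits either. The length of 1 read is in capitals.
Stat5a and Stat5b: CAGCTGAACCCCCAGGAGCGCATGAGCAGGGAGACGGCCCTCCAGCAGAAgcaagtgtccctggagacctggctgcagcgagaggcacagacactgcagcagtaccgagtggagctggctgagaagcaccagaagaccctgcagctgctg
The log2 ratio of Stat5b to Stat5a, each per kb of exon, was 0.46 ± 0.24 (SD, n = 4) in Mettl3-RNP and 0.46 ± 0.18 in Pulsed libraries. The paired difference was -0.0066 ± 0.10 (exact permutation p = 1). The sign of the ratio depends on the transcript length used, and with the longest transcript the Pulsed mean was -0.011.

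Stat6, the factor of IL-4 and IL-13, lies on chromosome 10 (127477821 to 127496862, plus strand). It was at 177, 132, 67.1 and 143 CPM in Mettl3-RNP 1 to 4 and at 163, 146, 66.5 and 126 CPM in Pulsed 1 to 4. Replicate 3 again lay far below the other libraries in both groups. The fold was 1.03 with an interval from 0.912 to 1.16 (adjusted p = 0.799, edgeR), and 3 of 4 pairs were higher.

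**Figure D2:**
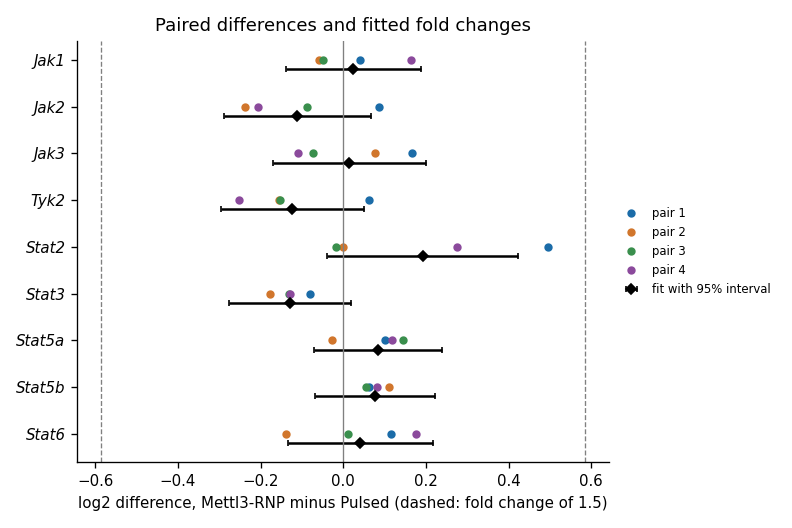
Log2 difference between Mettl3-RNP and Pulsed cells for each of the 9 genes, with coloured points for the 4 pairs and a black diamond and bar for the edgeR fit and its 95% interval (dashed lines mark a fold change of 1.5). All 9 bars cross 0 and lie between the dashed lines, and the 4 Stat3 points lie left of 0.

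The 9 transcripts were measured with more precision than most. They held 796 to 17121 counts per library, and their standard errors of 0.0628 to 0.0999 on the log2 scale were all under that of the median gene, 0.120. The absolute log2 fold change was under the median of all genes, 0.18, for 8 of 9 members. Fitted values were above 0 for 6 and below 0 for 3, with a median of 0.02 against -0.0013 over all genes. Together the 9 genes gave 1328 ± 301 CPM in Mettl3-RNP and 1325 ± 249 CPM in Pulsed libraries (SD, n = 4).

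Levels were compared between genes as CPM per kb of exon. In Pulsed cells the order was Jak1 (32.8 ± 4.76, SD, n = 4), Jak2 (27.7 ± 2.88), Stat5b (24.4 ± 8.39), Stat3 (19.6 ± 6.10), Stat6 (18.8 ± 6.30), Stat5a (18.3 ± 8.75), Tyk2 (9.16 ± 3.19), Stat2 (6.36 ± 1.56) and Jak3 (4.00 ± 0.766). Jak1 exceeded Jak2, Stat5a exceeded Tyk2, Tyk2 exceeded Stat2 and Stat2 exceeded Jak3 in 4 of 4 Pulsed libraries. The neighbours from Jak2 to Stat5a were not separated in all 4. Per kb of the longest transcript instead, Stat5a stood after Jak1, at 31.8, while Tyk2, Stat2 and Jak3 stayed last in that order.

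The make-up of each family differed between the groups by at most 2.40 percentage points on average over the 4 pairs, a limit that rests on all of them, since the Jak1 difference was 3.05 points without replicate 1 and 0.705 without replicate 4. Jak1 gave 46.6% ± 5.90 of the summed JAK level (CPM per kb, SD, n = 4) in Mettl3-RNP and 44.5% ± 6.32 in Pulsed libraries, Jak2 gave 35.9% and 37.6%, Tyk2 11.7% and 12.4%, and Jak3 5.71% and 5.49%. Of the summed STAT level, Stat5b gave 28.6% and 27.7%, Stat6 21.5% and 21.4%, Stat5a 20.9% and 20.3%, Stat3 20.6% and 23.0%, and Stat2 8.34% and 7.54%. The Stat3 share differed by -2.40 ± 0.437 percentage points (SD, n = 4 pairs), with a range from -2.77 to -1.79, the steadiest of these differences relative to its size. It had an exact two-sided permutation p of 0.125, the smallest that 4 pairs allow, as had the Tyk2 share (lower in 4 of 4 pairs, with a mean difference of -0.631 points) and the Stat5a share (higher in 4 of 4, with a mean difference of 0.683 points). The Tyk2 difference was -0.225 points without replicate 4 and that of Stat5a 0.301 without replicate 3. The differences of Jak2 (-0.876 without replicate 4), Stat2 (0.473 without replicate 1) and Stat5b (0.121 without replicate 2) also moved by more than 1.5 times, and those of Jak3 and Stat6 turned their sign when a replicate was left out.

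**Figure D3:**
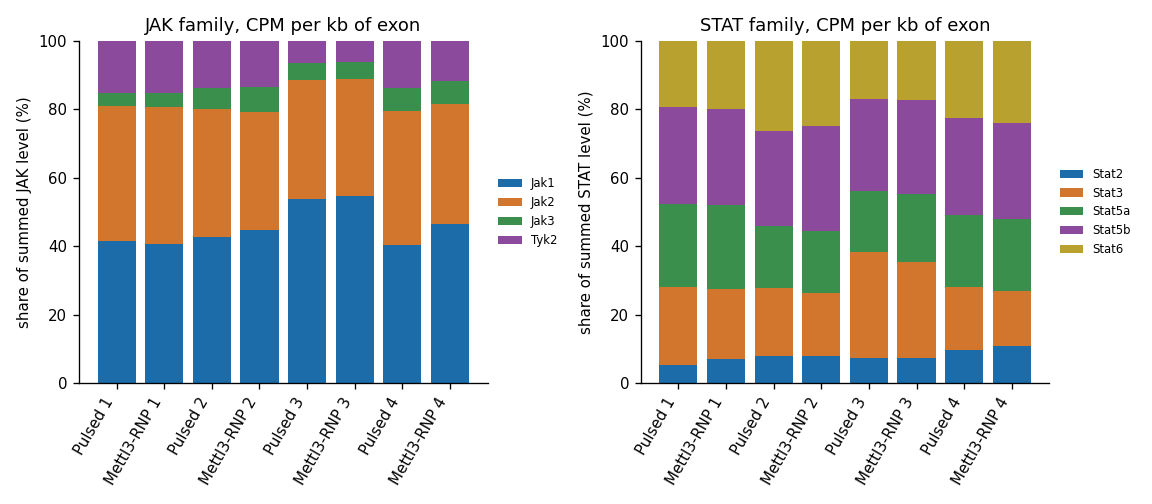
Share of each kinase in the summed JAK level (left) and of each factor in the summed STAT level (right), in percent of CPM per kb of exon, for the 8 libraries set side by side in pairs. The replicate 3 bars show a larger Jak1 share (54.7% and 53.9%), a larger Stat3 share (28.1% and 30.9%) and a smaller Tyk2 share (6.11% and 6.46%) than the rest.

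The 9 genes differed far more between replicate numbers than between the groups. The replicate number held from 81.4% (Jak2) to 99.1% (Stat5a and Stat5b) of a member's sum of squares of log2 CPM, with a median of 96.7% against 84.4% over the 8504 genes whose mean reached 10 CPM. The difference between groups held a median of 0.811% of it, against 5.35% over those genes. Across the 4 Pulsed libraries the highest level was 2.96 times the lowest for Stat5a, 2.61 for Tyk2, 2.46 for Stat6 and 2.31 for Stat5b, but 1.37 for Jak1 and 1.26 for Jak2, with a median of 1.61 over those genes.

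Members did not all follow the same replicate. Replicate 3 was the lowest library of both groups for Tyk2, Stat2, Stat5a, Stat5b and Stat6, 5 of 9 members against 27.7% of those genes, and the highest for Jak1. Replicate 1 was the highest of both groups for Jak2, Tyk2, Stat3, Stat5a, Stat5b and Stat6, 6 of 9 against 22% of those genes. Relative to the mean of the other libraries of its group, replicate 3 was at 0.426 (Mettl3-RNP) and 0.443 (Pulsed) for Tyk2, 0.445 and 0.459 for Stat6, and 0.520 and 0.496 for Stat5a. Irf9, the partner of Stat2, stood at 0.387 and 0.416 on the same measure.

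Some STAT target genes were highest and some lowest in replicate 3, where Stat5a, Stat5b and Stat6 stood low, and most of the STAT3 targets were highest there. Of the 15 STAT5 targets with a mean of 10 CPM or more, replicate 3 was the highest library of both groups for 6 and the lowest for 1, Pim2, and of 10 STAT3 targets for 8 and 1. The 3 STAT6 targets held 1 of each kind, Il4ra highest and Batf lowest, and the 4 targets of Stat2 and Irf9 held 1 highest and 2 lowest, beside 34.4% (highest) and 27.7% (lowest) of all genes at that level. The lists share genes, so these counts are not separate. Socs3, Bcl2l1, Mcl1 and Myc count as highest for both STAT5 and STAT3, and Il4ra for both STAT3 and STAT6. The genes named next were chosen after their values had been seen. Cish, an inhibitor that STAT5 induces, was at 2.40 and 2.51 times the mean of the other libraries in replicate 3, and Osm, which encodes oncostatin M, at 2.79 and 2.32 times. Il4ra, the receptor chain for IL-4, was at 1.44 and 1.75 times. Bcl2l1, which encodes a survival protein, and Socs3, an inhibitor of the kinases, were at 1.53 and 1.86 and at 2.17 and 3.85 times. Pim1, a kinase gene that STAT5 induces, was at 1.13 and 1.21 times. Pim2, a related kinase gene, was at 66.1 CPM in Mettl3-RNP 3 against 127 to 306 CPM in the others of its group and at 72.3 CPM in Pulsed 3 against 153 to 233 CPM, and Batf at 40.1 against 102 to 142 CPM and at 20.3 against 81.2 to 108 CPM. The immediate early genes were also highest in replicate 3, with median levels of 9.81 and 9.51 log2 CPM, and their part in these levels was not tested.

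**Figure D4:**
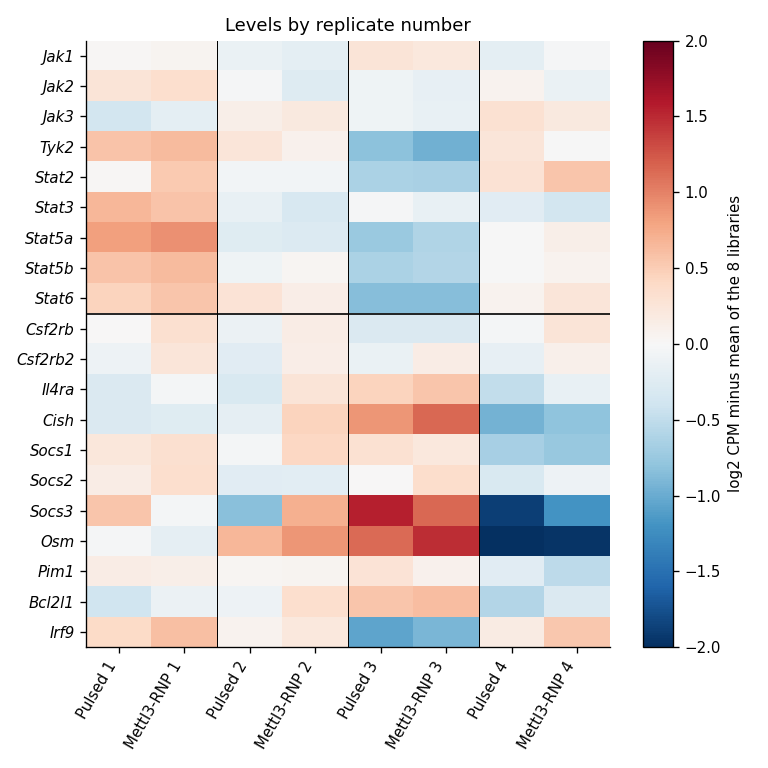
Log2 CPM of the 9 genes (above the line) and of 11 receptors, inhibitors and target genes chosen after values were seen (below it), as the difference from the gene's mean over the 8 libraries, with colours limited to the range from -2 to 2. In both groups replicate 3 is blue for Tyk2, Stat2, Stat5a, Stat5b, Stat6 and Irf9 but red for Jak1, Cish, Socs3 and Osm.

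Among the members themselves, the pairs with the most similar levels over the 8 libraries were Tyk2 with Stat6 and Stat5a with Stat5b (Pearson r of 0.97 each). The most opposed were Jak3 with Stat3 (r = -0.84). These 8 libraries come from 4 replicate numbers, so the values describe this series and carry no test. Of the 8504 genes whose mean reached 10 CPM, the closest in pattern were Rev1 and Ankrd11 for Jak1, Entrep3 and E330020D12Rik for Jak2, Psat1 and Sapcd1 for Jak3, and AI593442 and Plekhg3 for Tyk2. For the STATs they were 4632415L05Rik and Golga3 (Stat2), Birc6 and Gpbp1l1 (Stat3), Elmod3 and Fmo5 (Stat5a), Katnal1 and Arhgap45 (Stat5b), and Add1 and Agtpbp1 (Stat6), with r of at least 0.949.

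The receptors upstream of the kinases were examined next, from a list of 37 chains that signal through JAKs, of which 30 were tested. By the edgeR test, at an adjusted p within 0.05, 2 rose and 2 fell in Mettl3-RNP cells, beside 3.74% of all genes, and the median log2 fold change was 0.22 against -0.0013 over all genes. At an unadjusted p of 0.05 or less the count was 17 of 30, beside 22.5% of all genes. The DESeq2 Wald test called 7 receptors, beside 9.7% of all genes. With edgeR, leaving out replicate 1, 2, 3 or 4 left 1, 0, 2 and 3 called, beside 2.18%, 0.174%, 2.57% and 2.23% of all genes. In Pulsed cells the highest levels were those of Csf2rb2, the beta chain of the mouse that serves IL-3 alone (1807 CPM per kb), Csf2rb, the beta chain common to IL-3, IL-5 and GM-CSF (637), and Il4ra (171). The highest member, Jak1, stood at 32.8 on this scale.

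Csf2rb2 rose from 8858, 8159, 8731 and 8518 CPM in Pulsed 1 to 4 to 11270, 10417, 10549 and 10182 CPM in Mettl3-RNP 1 to 4, a log2 fold change of 0.31 (adjusted p = 0.0486, edgeR), with groups that did not overlap. Il12rb1, the chain common to the IL-12 and IL-23 receptors and a partner of Tyk2, rose from 18.0, 11.0, 14.2 and 10.1 CPM to 24.0, 20.6, 19.5 and 21.2 CPM (0.71, adjusted p = 0.0326), again without overlap. Both were higher in 4 of 4 pairs.

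Crlf2, the receptor chain for TSLP, fell from 171, 173, 247 and 134 CPM to 104, 151, 174 and 81.7 CPM (-0.53, adjusted p = 0.0326, edgeR), and Il2ra, the alpha chain of the IL-2 receptor, from 115, 88.7, 55.0 and 32.8 CPM to 36.9, 33.9, 10.9 and 25.2 CPM (-1.43, adjusted p = 0.0324). Both were lower in 4 of 4 pairs, though the groups overlapped. Leaving out a pair ended the calls of Csf2rb2 (adjusted p from 0.101 to 0.215) and Crlf2 (0.0588 to 0.0934) whichever pair it was, that of Il12rb1 without replicate 2 (0.146) and that of Il2ra without replicate 1 (0.0508) or 2 (0.116), and without the pairing none of the 4 was called (0.947 to 0.999). The call of Csf2rb2 also ended with DESeq2 size factors (0.0509), robust estimation of the spread (0.0632), every gene of at least 1 count (0.112) and 10 counts in every library (0.0692). Csf2rb2 and Csf2rb are near copies whose reads may have been split, and the part of cell make-up in these receptor levels was not tested. Beside them, basophil and erythroid marker sums were lower in the Mettl3-RNP library of 4 of 4 pairs, and mast cell markers were lower in sum but higher in median, as given above.

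**Figure D5:**
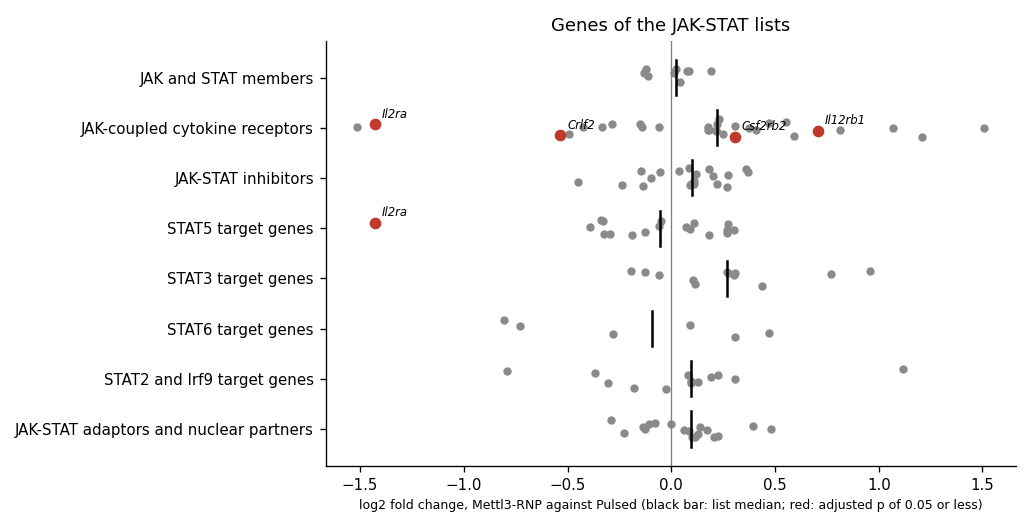
Log2 fold change (Mettl3-RNP against Pulsed) of each tested gene of the member list and the 7 JAK-STAT lists, with a black bar at each list's median and red points for genes past the test. The 9 members lie close to 0, and the red points are Csf2rb2, Il12rb1, Crlf2 and Il2ra, with Il2ra in both the receptor and the STAT5 target list.

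Inhibitors of the kinases came next. Of 20 JAK-STAT inhibitors, all tested, 0 passed the edgeR test in either direction, beside 3.74% of all genes, and 7 had an unadjusted p of 0.05 or less, beside 22.5%, with a median log2 fold change of 0.10. By the DESeq2 Wald test 3 passed, beside 9.7% of all genes, and 2 passed where genes needed 10 counts in every library, beside 7.67%. The highest levels per kb were those of Ptpn6, the phosphatase SHP-1 (153 in Pulsed cells), Cish (99.5) and Ptpn2, a phosphatase that acts on JAKs and STATs (56.2). Their log2 fold changes were -0.45 (adjusted p = 0.0665), 0.27 (0.165) and -0.24 (0.252) by edgeR, and Ptpn6 was lower and Cish higher in 4 of 4 pairs.

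Known target genes of the STATs were tested as a readout of the pathway. Of 18 tested STAT5 targets 1 fell, Il2ra, and none rose, with 8 at an unadjusted p of 0.05 or less, beside 22.5% of all genes, and a median log2 fold change of -0.05. Pim1, Osm and Lif had the highest levels of that list (260, 224 and 175 CPM per kb in Pulsed cells) and log2 fold changes of -0.13, 0.11 and -0.34. None of 12 STAT3 targets (median 0.27, 5 at an unadjusted p of 0.05 or less), 6 STAT6 targets (median -0.10, 3) or 13 targets of Stat2 and Irf9 (median 0.09, 2) passed the edgeR test. The DESeq2 Wald test called 6 STAT5, 5 STAT3, 3 STAT6 and 0 Stat2 and Irf9 targets, beside 9.7% of all genes, and some genes stand in more than 1 list. With edgeR, 1 STAT3 target passed with DESeq2 size factors and 1 without replicate 1, beside 3.85% and 2.18% of all genes. Keeping every gene of at least 1 count, 3 STAT3 and 2 STAT6 targets passed, beside 2.95%. With 10 counts in every library 2 STAT3 and 2 STAT5 targets passed, beside 7.67%. The STAT6 targets Retnla, Fcer2a and Ccl22 had no count in any library.

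Among the STAT3 targets Junb, an immediate early gene, had the highest mean over the Pulsed libraries (600 CPM per kb). Replicate 3 was its highest library in both groups, so this mean and rank depend on that library. Among the STAT6 targets Batf, a transcription factor, stood at 54.2 after Il4ra, and among the Stat2 and Irf9 targets Bst2, Eif2ak2 and Irf9 led (17.9, 10.5 and 6.68). Of 18 adaptors and nuclear partners 0 passed the edgeR test and 2 the DESeq2 Wald test (median 0.09, 4 at an unadjusted p of 0.05 or less), with the chaperones Hsp90ab1 (453 CPM per kb) and Hsp90aa1 (101) and the adaptor Grb2 (57.7) highest. Joined, the 7 lists held 102 tested genes of 123, of which 2 rose and 2 fell, 3.92%, beside 3.74% over all genes. By the DESeq2 Wald test 21 of the 102 were called, 20.6%, beside 9.7% over all genes, and 10 of the 102 had no adjusted p there.

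STAT dimers bind a motif called GAS, searched here only as TTCNNNGAA (N for any base), so sites with another spacing were not counted. The complex of Stat2 and Irf9 binds the ISRE, searched as TTTC, 2 bases of any kind and TTTC again, or as its reverse complement (GAAA, 2 bases, GAAA). GAS and ISRE were searched on both strands in promoters from RefSeq (GRCm38.p6, 250 bases before to 50 after each start site). There, 9.55% of 27025 genes held a GAS motif in at least 1 promoter and 3.99% an ISRE (8.30% and 3.44% of 32851 promoters). All 9 members had a promoter in the table, 0 held GAS and 1, Stat2, held an ISRE, 222 bases before its start site. Promoters of the 7 lists held GAS in 3 of 13 STAT5, 2 of 10 STAT3, 2 of 9 STAT6 and 4 of 15 Stat2 and Irf9 targets, in 2 of 12 inhibitors, in 6 of 30 receptors and in 0 of 14 adaptors and nuclear partners, and an ISRE in 8 of 15 Stat2 and Irf9 targets and in at most 1 gene of each other list. The matches in Stat2, in the inhibitors Cish and Socs3, in the receptor Csf2rb2 and in the interferon-induced genes Isg15 and Ifit1, chosen after the matches had been seen, are shown with 10 bases on each side and the motif letters in capitals. A match describes these letters and is not a measured binding site.
Stat2, ISRE, chr10:128270266-128270295, plus strand: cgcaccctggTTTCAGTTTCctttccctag
Cish, 2 GAS motifs, chr9:107296649-107296688, plus strand: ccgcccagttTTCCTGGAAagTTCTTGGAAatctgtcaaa
Socs3, GAS, chr11:117969502-117969530, minus strand: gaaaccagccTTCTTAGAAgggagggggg
Csf2rb2, GAS, chr15:78305718-78305746, minus strand: gtgtccacaaTTCTGAGAAgcaagcaaag
Isg15, 3 overlapping ISRE matches, chr4:156200865-156200906, minus strand: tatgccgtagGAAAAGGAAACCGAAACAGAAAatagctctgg
Ifit1, 2 ISRE matches, chr19:34640775-34640823, plus strand: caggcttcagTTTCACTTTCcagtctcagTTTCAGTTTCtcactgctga
Of the genes shown, Stat2 had a log2 fold change of 0.19, Cish of 0.27 and Csf2rb2 of 0.31 in Mettl3-RNP cells. Socs3 had one of 0.27 (adjusted p = 0.688, edgeR) and Isg15, at 0.377 CPM in Pulsed cells, one of 1.12 (0.205). Ifit1 had too few counts to be tested. Csf2rb2 alone passed the test, with a call that held in 3 of 12 alternatives. Genes with a match that are not shown went both ways, such as Il7r at -1.51 and Ccl17 at -0.81 against Ifnar1 at 0.23 and Il12rb2 at 0.22. A relation between a match and the fold change was not tested.

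Mettl3 methylates adenosines within a consensus whose most common form is GGACT, so the members' longest transcripts were searched for it. Jak3 held 15 copies, 2.36 per kb, and the other 8 members from 0.465 (Stat3) to 1.28 per kb (Stat6), against a median of 1.03 and quartiles of 0.681 and 1.41 over 12056 protein-coding genes tested. From the fewest copies per kb to the most, the folds between the groups were 0.914 (Stat3), 0.926 (Jak2), 0.918 (Tyk2), 1.06 (Stat5a), 1.14 (Stat2), 1.06 (Stat5b), 1.02 (Jak1), 1.03 (Stat6) and 1.01 (Jak3). A relation between copies and folds was not tested. A copy of the motif is no measure of methylation.

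Because the strand setting of the counting is not given, exons that overlap another gene were listed. Jak1 shares 1950 exon bases (18.0%) with Raver2 on the opposite strand, and Jak3 shares 13.4% with B3gnt3 on the opposite and 8.08% with Insl3 on the same strand. These partners were low, at most 0.304 CPM for Raver2, 1.94 for B3gnt3 and 0.342 for Insl3. Low partner counts do not show that the member counts were unaffected, since how reads in shared bases were counted is not given. The ends of Stat5a and Stat3 overlap by 142 bases on opposite strands, and Stat6 shares 77 bases (1.15%) with Nab2, which ranged from 12.1 to 114 CPM. Long noncoding RNA genes on the opposite strand also overlap members. Tyk2 shares 6.36% of its exon bases with 1700084C06Rik, Stat5a 5.69% with Gm72578, Stat3 5.49% with Gm46295 and Jak2 3.55% with Gm59364.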

How the data were processed

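Poly-A RNA of the 8 BMMC libraries was sequenced as paired reads of 50 bases. The authors checked reads with FastQC 0.11.9, aligned them with HISAT2 2.2.1 to GRCm39 and deposited whole-number counts per Ensembl gene from featureCounts 2.0.1, with no normalization. Strand and multimapping settings are not given in the sources used here, and the batch correction named in the study's methods is not visible in the counts. Names and structures came from GENCODE (GRCm39), which named 98.7% of the IDs, and at most 0.113% of a library's counts lay in IDs without a name.

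Genes were kept by filterByExpr (minimum count 10), scaled by TMM and tested with the quasi-likelihood test of edgeR 4.0.16 (R 4.3.3) blocked on replicate number, with Benjamini-Hochberg adjustment. The script was tested on simulated data. Alternatives were DESeq2 1.42.0, voom of limma 3.58.1, other scalings and filters, robust estimation of the spread, no block, and leaving out each pair. Marrow of 4 mice was used according to the series text. Reading a replicate number as a mouse is inferred from it, and p-values measure the spread between these pairs. The deviation from the group mean was correlated between libraries of a pair, at 0.825, 0.489, 0.879 and 0.765 over 11985 genes, against at most 0.183 for other library pairs between the groups. Levels per kb used exon bases of GENCODE, and log2 CPM a prior count of 2. Intervals cover the spread between pairs, not PCR duplication, since reads carried no molecular identifiers.

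The members and gene lists were chosen with earlier results of these data known. Beside the members and Mettl3, the text names list genes past the test, the 3 with the highest level per kb of each list, the 2 genes closest in pattern to each member, genes that overlap a member, marker genes, and those said to be chosen later.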

Additional observations from a re-analysis of the deposited data

Results flagged for a closer look

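Among 20 groups of 4 libraries examined (the 9 members and Mettl3 in each group), 2 held a library far from the other 3 by Dixon's ratio, where chance gives about 1. Stat3 was at 273.6 CPM in Mettl3-RNP 1, against 143 to 165 CPM in the other Mettl3-RNP libraries. Its pair, Pulsed 1, held 289 CPM, also the highest of its group. Mettl3 was at 11.2 CPM in Pulsed 3, against 24.5 to 26.5 CPM in the other Pulsed libraries. The fold changes of both genes were taken within pairs. Without replicate 1 the log2 fold change of Stat3 was -0.18, against -0.13 with all pairs. Without replicate 3 that of Mettl3 was -1.34, against -1.30.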

How the results depend on the processing

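None of the 9 members passed an adjusted p of 0.05 under any of the 12 alternatives, with or without the limit on the fold change. Without the replicate block the count was also 0, while the genes called over the whole table fell from 559 to 0 and those of the 7 JAK-STAT lists from 4 to 0. The list count was 12 with every gene that had at least 1 count, 9 with at least 10 counts in every library, 21 by the DESeq2 Wald test, and from 0 to 3 when a replicate was left out (0 without replicate 2, 2 without replicate 1 or 3). Over all genes 26 passed without replicate 2, 332 without replicate 1, 345 without replicate 4, 993 with every gene of at least 1 count, 959 with at least 10 counts in every library and 1449 by DESeq2. At an unadjusted p of 0.05 or less, 1 member, Stat2, passed with library size alone and without replicate 3. Of 108 member fold changes recomputed, 103 kept their sign and 5 small ones turned it when a replicate was left out: Jak1 without replicate 1 or 4 (range over the 4 fits -0.017 to 0.047), Jak3 without replicate 1 or 2 (-0.071 to 0.067) and Stat6 without replicate 1 (-0.019 to 0.096). Leaving out a replicate moved the log2 fold change of Stat2 between 0.052 and 0.26, of Tyk2 between -0.22 and -0.070, of Jak2 between -0.21 and -0.068, and the Jak1 share difference between 0.705 and 3.05 percentage points. Per kb of the longest transcript, the Pulsed shares were 52.7% for Jak1, 28.3% for Jak2, 24.0% for Stat5a and 23.7% for Stat5b, and the log2 ratio of Stat5b to Stat5a was -0.011, since the lengths enter these values directly. With 4 pairs the exact permutation test cannot go below 0.125. The cause of the other changes was not tested.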
